A study of Homo sapiens with 10 samples.

Results

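In all, 10 genes of the Notch pathway were followed in human colorectal carcinoma cells that lacked or received the histone demethylase KDM5A. They were listed by name, and earlier results of these data were known when they were chosen. They are the receptors NOTCH1, NOTCH2 and NOTCH3, the ligands JAG1, JAG2 and DLL1, the DNA-binding factor RBPJ, and the targets HES1, HEY1 and NRARP. All 10 were among the 57993 gene symbols of the deposited tables, and all 10 passed the filter on low values that left 17779 genes for testing.

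RNA had been sequenced from HCT116 cells, an established human colorectal carcinoma line, in 10 libraries of 4 groups. These were HCT116 KDM5A-/- cells with a plasmid for a mutant KDM5A (2 libraries), the same KDM5A-/- cells with a plasmid for wild-type KDM5A (3 libraries), KDM5A-/- cells with empty vector (3 libraries), and parental HCT116 cells with empty vector (2 libraries). All 10 libraries came from cells that were sorted for GFP 24 h after transfection, and the labels do not name the mutation. The knockout cells alone were kept in G418, so genotype, culture history and G418 cannot be told apart in the comparison with parental cells.

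Notch receptors sit in the cell membrane and are bound by Jagged and Delta-like ligands on a neighbouring cell. Binding leads to cleavage of the receptor, and its freed intracellular domain joins RBPJ on DNA and switches on targets such as the HES and HEY repressors and NRARP, an inhibitor of the pathway. Without that domain RBPJ sits with corepressors, and KDM5A, a demethylase of histone H3 lysine 4, has been described as one of them; in the intestine Notch signalling keeps progenitors from the secretory fates.

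The values were deposited as FPKM (sequenced fragments per length of transcript and library size) on a log2 scale. They were taken back from that scale and divided by 1 factor per library. They are called scaled FPKM here and can be compared between genes per length; read depth is unknown. KDM5A itself reached 23346 and 22816 scaled FPKM in the mutant KDM5A libraries and 13452 to 16237 in the wild-type KDM5A libraries, against 12.2 to 15.3 in the knockout libraries with empty vector. Parental libraries had 13.3 and 17.7, which overlaps the knockout range, so KDM5A RNA gives no check of the knockout (log2 fold change -0.20, limma adjusted p = 0.391). Library make-up split 3 from 7: in both mutant libraries and in parental library 2 protein-coding genes took 90.4% to 91.0% of the summed values, against 92.7% to 93.1% in the rest, and ribosomal protein genes 14.8% to 15.5%, against 11.99% to 13.3%. Of 7 colorectal epithelial markers 6 were present, with VIL1 under 1 in every library. Their summed level was 5357 to 5851 in mutant, 4645 to 4903 in wild-type, 4399 to 4444 in knockout empty-vector and 4155 to 4707 in parental libraries. Under 1 in every library were 5 of 6 fibroblast, 4 of 6 leukocyte and 4 of 5 endothelial markers. The sixth fibroblast marker, the collagen gene COL1A1, was present in all 10 libraries. It was 13.5 and 15.0 in the mutant, 21.2, 17.3 and 24.2 in the wild-type, 20.2, 23.1 and 28.7 in the knockout empty-vector and 22.3 and 14.9 in the parental libraries. It was lower with mutant KDM5A than with empty vector (log2 fold change -0.70, limma adjusted p = 0.0440), and its part in the Notch values was not tested.

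Per length, JAG2 was the most abundant of the 10 genes in every group, followed by RBPJ and then NOTCH2, with no overlap between neighbours in that order. The exception was the parental group, where NOTCH2 overlapped NRARP. NOTCH1, NOTCH3, JAG1, HES1 and NRARP lay in a middle range of 10.9 to 24.1 scaled FPKM by group mean. There the order of neighbours changed between groups and ranges mostly overlapped. DLL1 and HEY1 were the lowest in each group, with means of 2.32 to 5.28, and their ranges overlapped each other only in the mutant libraries.

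**Figure D1:**
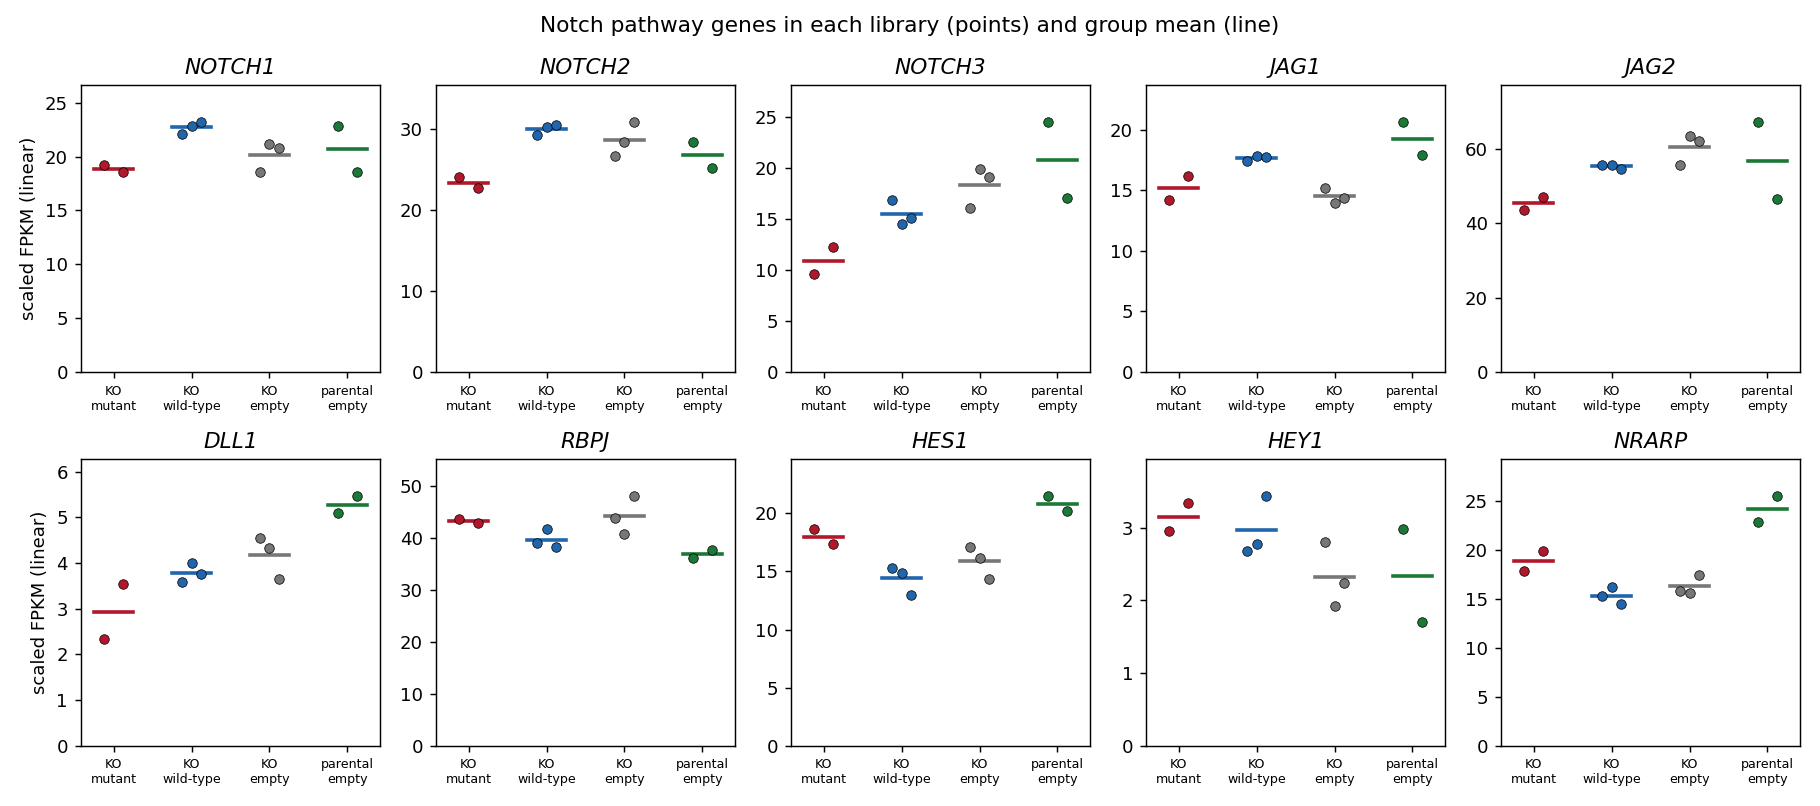
Scaled FPKM of each of the 10 genes (y axis, linear, from 0) in every library (points) with the group mean (line), for knockout cells with mutant KDM5A, wild-type KDM5A or empty vector and for parental cells with empty vector. NOTCH3 sits at 9.56 and 12.2 in the mutant libraries, under every other library, and NRARP is highest in the parental libraries at 22.8 and 25.5.

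The receptors differed in how far they varied. NOTCH3 (chr19:15159038-15200981, minus strand, GRCh38) was 9.56 and 12.2 scaled FPKM in the mutant KDM5A libraries, 16.8, 14.5 and 15.1 in the wild-type KDM5A libraries, 16.1, 19.8 and 19.1 in the knockout libraries with empty vector, and 24.5 and 17.1 in the parental libraries. Both mutant libraries were below all 8 others, while the parental pair overlapped the empty-vector libraries. NOTCH2 (chr1:119911553-120069626, minus strand) was 24.0 and 22.7 in the mutant libraries, 29.3, 30.2 and 30.5 in the wild-type libraries, 26.6, 28.3 and 30.8 in the empty-vector knockout libraries, and 28.4 and 25.2 in the parental libraries. Again the mutant libraries were the lowest of the 10. NOTCH2NL, a partial copy, could take some of the reads of NOTCH2. It stood at 13.9 and 17.5 in the mutant, 11.3, 12.9 and 11.3 in the wild-type, 13.2, 16.1 and 13.2 in the empty-vector and 16.2 and 18.5 in the parental libraries. How the authors' tools shared reads between NOTCH2 and NOTCH2NL is not given in the sources used here. NOTCH1 (chr9:136494444-136545862, minus strand) was 19.2 and 18.6 in the mutant libraries, 22.1, 22.8 and 23.2 in the wild-type libraries, 18.6, 21.2 and 20.8 in the empty-vector knockout libraries, and 22.8 and 18.5 in the parental libraries. The wild-type libraries were above the mutant and empty-vector ones, and the parental pair covered nearly the whole range.

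Among the ligands, JAG1 (chr20:10637684-10674107, minus strand) was 14.2 and 16.2 in the mutant libraries, 17.4, 17.8 and 17.8 in the wild-type libraries, 15.2, 13.96 and 14.4 in the empty-vector knockout libraries, and 20.6 and 17.9 in the parental libraries. All empty-vector knockout libraries were below the wild-type and the parental ones. JAG2 (chr14:105140981-105168824, minus strand) was 43.7 and 47.2 in the mutant libraries, 55.9, 55.6 and 54.7 in the wild-type libraries, 55.6, 63.6 and 62.1 in the empty-vector libraries, and 67.2 and 46.5 in the parental libraries. Parental library 2, which shares its low protein-coding share with the mutant libraries, lay within the mutant range for JAG2, and parental library 1 was the highest of all. DLL1 (chr6:170282206-170290473, minus strand), at 2.33 and 3.55 in the mutant, 3.59, 4.003 and 3.76 in the wild-type, 4.55, 4.33 and 3.65 in the empty-vector and 5.09 and 5.46 in the parental libraries, was lowest in the mutant and highest in the parental group. In GENCODE release 29 an exon of JAG1 overlaps an antisense gene and one of JAG2 a processed transcript of the same strand; whether counting used strand is not given in the sources used here, so reads of JAG1 and the antisense gene may not have been told apart.

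RBPJ (chr4:26163455-26435131, plus strand) was 43.6 and 42.8 in the mutant libraries, 39.0, 41.7 and 38.2 in the wild-type libraries, 43.9, 40.7 and 48.0 in the empty-vector libraries, and 36.2 and 37.6 in the parental libraries. The parental libraries were the lowest of the 10. HES1 (chr3:194136145-194138732, plus strand) was 18.6 and 17.4 in the mutant libraries, 15.3, 14.9 and 13.0 in the wild-type libraries, 17.1, 16.1 and 14.4 in the empty-vector libraries, and 21.5 and 20.2 in the parental libraries. NRARP (chr9:137300482-137302251, minus strand) was 17.9 and 19.9 in the mutant libraries, 15.3, 16.2 and 14.4 in the wild-type libraries, 15.7, 15.6 and 17.4 in the empty-vector libraries, and 22.8 and 25.5 in the parental libraries. HES1 and NRARP had the same layout: parental libraries highest, mutant libraries next, and the wild-type and empty-vector libraries lowest and overlapping. HEY1 was 2.96 and 3.34 in the mutant, 2.68, 2.78 and 3.44 in the wild-type, 2.80, 1.92 and 2.24 in the empty-vector and 2.98 and 1.71 in the parental libraries. Its parental pair alone spanned 1.71 to 2.98 and overlapped all 3 other groups.

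Promoter sequence is shown for the 4 genes that passed in a comparison below, and for HES1, which passed in none and is shown for its RBPJ motifs, since both RBPJ and KDM5A act at promoters. The windows are the 250 bases before the transcription start in RefSeq (GRCh38.p14), found for 8 of the 10 genes; HEY1 and DLL1 had no entry. Capitals mark, in HES1, TGGGAA, the core of the sequence that RBPJ binds, and in the other 4, CCGCCC, the motif described for the ARID domain of KDM5A, or its reverse complement GGGCGG. Both motifs were searched on both strands. The windows are chr3:194135898-194136147 (plus strand) for HES1, chr9:137302272-137302521 (minus) for NRARP, chr20:10674000-10674249 (minus) for JAG1, chr19:15200996-15201245 (minus) for NOTCH3 and chr1:120069663-120069912 (minus) for NOTCH2, each written 5′ to 3′ on the strand of its gene.
HES1: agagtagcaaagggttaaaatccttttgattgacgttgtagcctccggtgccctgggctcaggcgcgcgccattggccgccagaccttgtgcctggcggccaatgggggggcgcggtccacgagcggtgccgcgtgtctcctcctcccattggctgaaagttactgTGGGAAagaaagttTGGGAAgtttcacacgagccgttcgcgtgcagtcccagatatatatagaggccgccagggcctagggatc
NRARP: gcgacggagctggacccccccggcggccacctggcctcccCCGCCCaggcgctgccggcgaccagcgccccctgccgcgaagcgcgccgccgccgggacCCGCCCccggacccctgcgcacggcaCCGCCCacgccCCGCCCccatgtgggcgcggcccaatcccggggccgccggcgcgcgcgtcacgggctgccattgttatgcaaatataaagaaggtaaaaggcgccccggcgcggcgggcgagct
JAG1: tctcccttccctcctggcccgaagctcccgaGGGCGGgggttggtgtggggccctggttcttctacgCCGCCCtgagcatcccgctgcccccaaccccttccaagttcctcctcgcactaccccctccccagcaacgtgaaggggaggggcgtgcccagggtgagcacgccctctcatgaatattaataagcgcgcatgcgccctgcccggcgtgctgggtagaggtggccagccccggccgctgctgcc
NOTCH3: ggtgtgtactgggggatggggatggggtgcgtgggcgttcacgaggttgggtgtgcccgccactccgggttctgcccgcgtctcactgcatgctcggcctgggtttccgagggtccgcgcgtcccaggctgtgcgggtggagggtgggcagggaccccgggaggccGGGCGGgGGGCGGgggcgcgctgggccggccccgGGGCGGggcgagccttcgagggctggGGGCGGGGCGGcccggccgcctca
NOTCH2: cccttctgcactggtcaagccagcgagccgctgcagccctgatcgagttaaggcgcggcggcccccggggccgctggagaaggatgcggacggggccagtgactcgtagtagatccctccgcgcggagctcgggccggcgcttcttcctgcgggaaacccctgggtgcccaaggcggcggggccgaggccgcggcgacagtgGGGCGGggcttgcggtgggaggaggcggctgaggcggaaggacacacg

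The HES1 window holds TGGGAA 2 times, from base -84 to -79 and from base -70 to -65 counted from the start, and the first lies in the longer form GTGGGAA. Among the other genes TGGGAA was found only in a window of RBPJ, also 2 times. Of all 35116 promoter windows of this length 20.85% hold TGGGAA, and GTGGGAA is held by 5.43% of them. The KDM5A motif CCGCCC was found 4 times in the NRARP window, 2 times in that of JAG1, 1 time in that of NOTCH2 and 5 times in that of NOTCH3, where 1 pair overlaps. It was also found in windows of NOTCH1, JAG2 and RBPJ and was not found in that of HES1; 42.6% of all windows hold it. These matches describe the letters and no binding was measured.

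**Figure D2:**
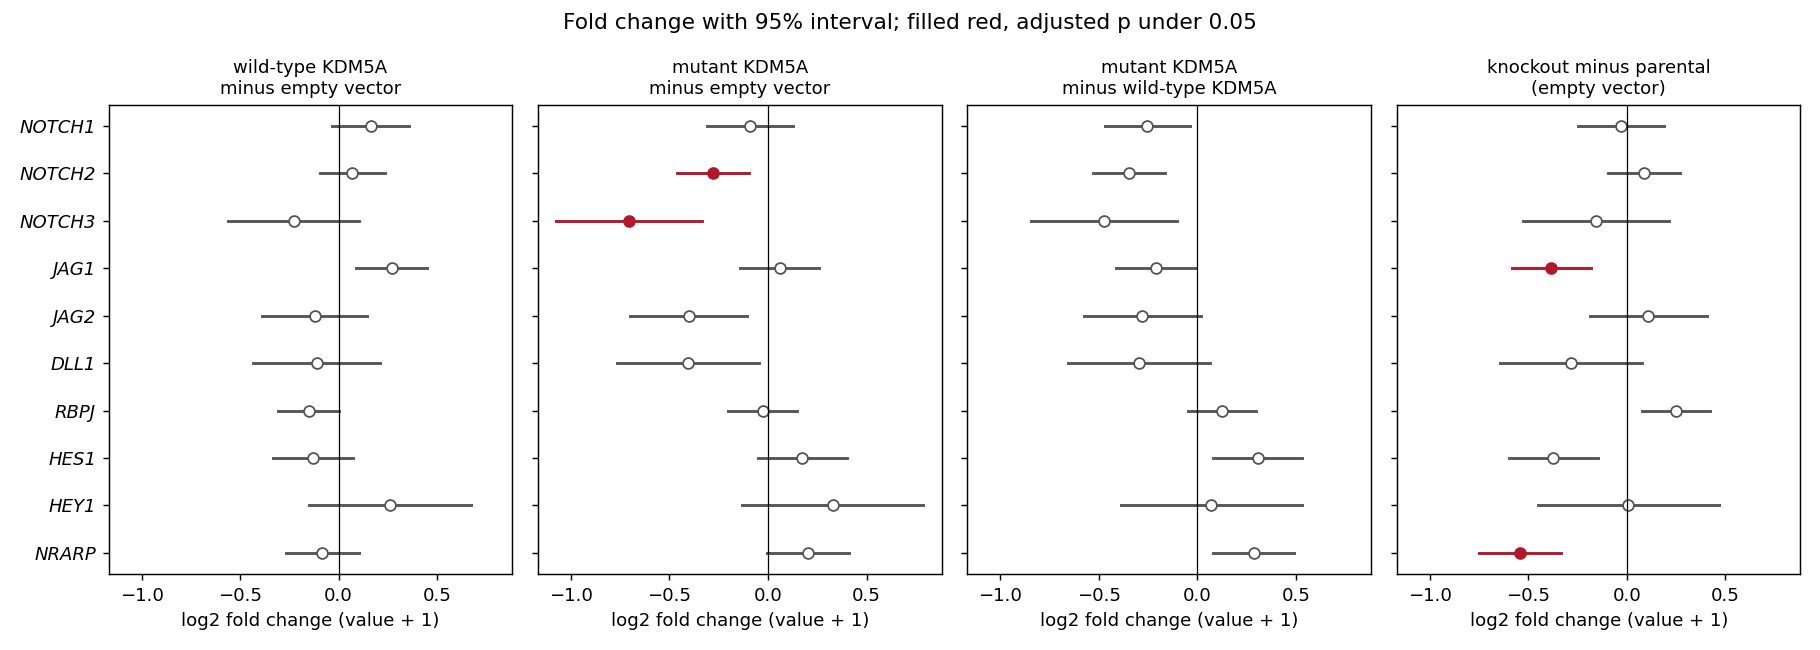
Log2 fold change on the scale of the scaled value plus 1 (x axis), with its 95% interval (line), for each of the 10 genes in the 4 comparisons; filled red points passed at an adjusted p under 0.05. NOTCH2 and NOTCH3 were lower with mutant KDM5A than with empty vector, and JAG1 and NRARP were lower in knockout than in parental cells.

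The question of the first comparison is how these genes differ when knockout cells receive mutant KDM5A in place of an empty vector. NOTCH3 fell to 10.9 ± 1.90 scaled FPKM in the mutant libraries (SD, n = 2), against 18.3 ± 1.98 with empty vector (SD, n = 3), a log2 fold change of -0.70 (SE 0.16; limma adjusted p = 0.0213). NOTCH2 fell to 23.4 ± 0.937, against 28.6 ± 2.10, a log2 fold change of -0.28 (SE 0.081; limma adjusted p = 0.0468). These 2 of 10 genes passed, both lower, where 16.5% of all 17779 genes passed, 9.48% higher and 7.05% lower. In bulk RNA such as this, from sorted cells, fewer cells of a type and less RNA per cell cannot be told apart. The ligands JAG2 (log2 fold change -0.40, limma adjusted p = 0.0669) and DLL1 (-0.41, adjusted p = 0.113) had an unadjusted p under 0.05 only; with the receptors that makes 4 genes below it, against 32.2% of all genes. NOTCH1 (-0.09), JAG1 (0.06) and RBPJ (-0.03) had intervals that spanned 0 and stayed within -0.31 to 0.26 on the log2 scale. The targets had positive values that did not pass: HES1 0.17, HEY1 0.33 and NRARP 0.20, with adjusted p of 0.265, 0.30 and 0.162. Libraries did not overlap for 7 genes, 3 higher and 4 lower, against 46.9% of all genes (23.3% higher and 23.6% lower). The median log2 fold change of the 10 was -0.06, against -0.01 over all genes.

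Both calls depended on single libraries. NOTCH3 lost its call without mutant library 1 (adjusted p = 0.128), empty-vector library 2 (0.0682) or empty-vector library 3 (0.0669) in limma, with log2 fold changes of -0.87 to -0.54 over the 10 fits that each leave out 1 library. NOTCH2 lost its call without mutant library 1 (0.0995) or 2 (0.148), wild-type library 1 (0.0728), 2 (0.0727) or 3 (0.0714), or empty-vector library 2 (0.104) or 3 (0.131). JAG2 passed without parental library 1 (adjusted p = 0.00685) or 2 (0.0067), and DLL1 without mutant library 2 (0.0376). Leaving out a wild-type or parental library does not move the fold changes of this comparison, only the spread of the fit. JAG2 kept its log2 fold change of -0.40, while its SE went from 0.13 to 0.069 without parental library 1. Once protein-coding share entered the fit as a covariate neither NOTCH3 nor NOTCH2 passed. NOTCH3 had a log2 fold change of -0.34 (limma adjusted p = 0.437) and NOTCH2 of -0.15 (0.558). Among knockout libraries the share was 91.0% in both mutant ones and 92.7% to 93.1% in the rest. Fits with this covariate thus have little means to tell the share from mutant KDM5A. On the values as deposited, where the median gene moved by -0.30, HES1 (-0.15), NRARP (-0.12) and JAG1 (-0.26) had negative fold changes.

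Set directly against wild-type KDM5A, the mutant gave lower receptors, higher HES1 and NRARP and little change in HEY1 (0.07 on the log2 scale) by value. None of the 10 genes passed in limma. By unadjusted p under 0.05 there were 6: NOTCH1, NOTCH2, NOTCH3 and JAG1 lower, and HES1 and NRARP higher. Over all genes 0.0562% passed (0.0337% higher, 0.0225% lower) and 20.2% had an unadjusted p under 0.05. NOTCH2 averaged 23.4 ± 0.937 in the mutant libraries (SD, n = 2) and 30.0 ± 0.628 in the wild-type libraries (SD, n = 3), with a log2 fold change of -0.35 (95% interval -0.53 to -0.16; adjusted p = 0.0937). NOTCH3 had -0.48 (-0.84 to -0.11; adjusted p = 0.159) and NOTCH1 -0.25 (-0.47 to -0.04; adjusted p = 0.192). HES1 averaged 18.0 ± 0.867 in the mutant and 14.4 ± 1.23 in the wild-type libraries, 0.31 on the log2 scale (0.08 to 0.53; adjusted p = 0.147). NRARP averaged 18.9 ± 1.41 in the mutant and 15.3 ± 0.900 in the wild-type libraries, 0.29 on the log2 scale (0.08 to 0.49; adjusted p = 0.140). These values moved with the setting. With the protein-coding share as a covariate the log2 fold change of NOTCH1 was -0.0060, that of NOTCH3 -0.07, that of NOTCH2 -0.20 and that of NRARP 0.17. On the values as deposited, where the median gene moved by -0.20, HES1 had 0.09 and NRARP 0.07, while NOTCH1 had -0.47 and NOTCH2, at -0.56, passed (adjusted p = 0.0380).

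Mutant and wild-type libraries did not overlap for 9 of the 10 genes, HEY1 being the exception, against 38.8% of all genes (19.5% higher, 19.4% lower); 6 of the 9 were lower in the mutant libraries and RBPJ, HES1 and NRARP were higher. The median log2 fold change of the 10 was -0.23, against -0.00059 over all genes. KDM5A itself had a log2 fold change of 0.62 (adjusted p = 0.0926), so the mutant and wild-type libraries also differ in KDM5A RNA by value. Leaving out a parental library does not move the fold changes of this comparison, only the spread of the fit. NOTCH2 passed in limma without parental library 1 (adjusted p = 0.0391) or 2 (0.0389), as did KDM5A (0.0214 without either), and all genes called then numbered up to 970 in place of 10.

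With wild-type KDM5A against empty vector, no member passed in limma, where 4.54% of all genes did (2.52% higher, 2.02% lower); JAG1 alone had an unadjusted p under 0.05, against 20.5% of all genes. JAG1 averaged 17.7 ± 0.219 in the wild-type libraries and 14.5 ± 0.609 in the empty-vector libraries (SD, n = 3 each), a log2 fold change of 0.27 (SE 0.080; 95% interval 0.09 to 0.45; adjusted p = 0.0962). It passed in a fit of these 6 libraries alone (adjusted p = 0.0404), with array weights (0.0215), and in a fit that dropped both mutant libraries along with parental library 2 (0.0388). Of all genes, 9.5%, 11.8% and 9.51% passed in those fits, against 4.54% as reported. JAG1 and NOTCH1 were the 2 genes whose libraries did not overlap, both higher, against 32.6% of all genes (16.4% higher, 16.2% lower), and the median of the 10 was -0.10, against 0.00074 over all genes. NOTCH1 averaged 22.7 ± 0.552 in the wild-type libraries and 20.2 ± 1.41 in the empty-vector libraries (0.16 on the log2 scale, adjusted p = 0.327). HES1 (-0.13, 95% interval -0.33 to 0.07) and NRARP (-0.08, -0.27 to 0.10) had intervals that spanned 0. The empty-vector knockout libraries serve both plasmid comparisons and also the comparison with parental cells, so the fold changes of these comparisons are not independent.

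The last comparison sets knockout against parental cells, both with empty vector. NRARP fell to 16.3 ± 1.02 scaled FPKM in knockout cells (SD, n = 3), against 24.1 ± 1.85 in parental cells (SD, n = 2), a log2 fold change of -0.54 (SE 0.091; limma adjusted p = 0.00900). JAG1 fell to 14.5 ± 0.609, against 19.2 ± 1.93 (-0.38, SE 0.089; adjusted p = 0.0321). These 2 genes passed, both lower, where 8.94% of all genes passed, 4.84% higher and 4.09% lower; 4 genes had an unadjusted p under 0.05, against 25.7% of all genes. HES1 averaged 15.9 ± 1.38 in knockout and 20.8 ± 0.933 in parental cells (-0.37, SE 0.10), just short of the threshold in limma (adjusted p = 0.0507). RBPJ averaged 44.2 ± 3.67 in knockout and 36.9 ± 1.02 in parental cells (0.25, SE 0.076; adjusted p = 0.0775). The receptors NOTCH1 (-0.03), NOTCH2 (0.09) and NOTCH3 (-0.16) had intervals spanning 0, and that of NOTCH3, -0.52 to 0.21, was the widest. Libraries did not overlap for 5 genes, RBPJ higher and JAG1, DLL1, HES1 and NRARP lower, against 42.4% of all genes (21.9% higher, 20.6% lower), and the median of the 10 was -0.09, against 0.0027 over all genes.

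NRARP lost its call without parental library 2 (log2 fold change -0.47, limma adjusted p = 0.0641), in the fit of these 5 libraries alone (0.0527) and with the protein-coding share as a covariate (0.0626). JAG1 lost its call without parental library 1 (0.120), empty-vector library 1 (0.0570), 2 (0.0985) or 3 (0.0924), or wild-type library 1 (0.0580), 2 (0.0569) or 3 (0.0565). On the values as deposited JAG1 did not pass either (0.150). Of all genes, 2.61% passed in the fit of these 5 libraries alone and 3.86% with the covariate, against 8.94% as reported. Within groups the protein-coding share differed most between the parental libraries, at 92.8% in library 1 and 90.4% in library 2. In this comparison the covariate fit is thus not a separate check from the fit without parental library 2. The 2 parental libraries differed for JAG2, whose log2 fold change was 0.37 without parental library 1 (limma adjusted p = 0.0354) and -0.15 without parental library 2 (0.395). The signs of NOTCH1, NOTCH3 and HEY1 likewise depended on 1 library: without parental library 1 NOTCH1 had 0.11 and NOTCH3 0.09, without parental library 2 HEY1 had -0.27, and without empty-vector library 1 NOTCH1 had 0.03 and HEY1 -0.09.

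**Figure D3:**
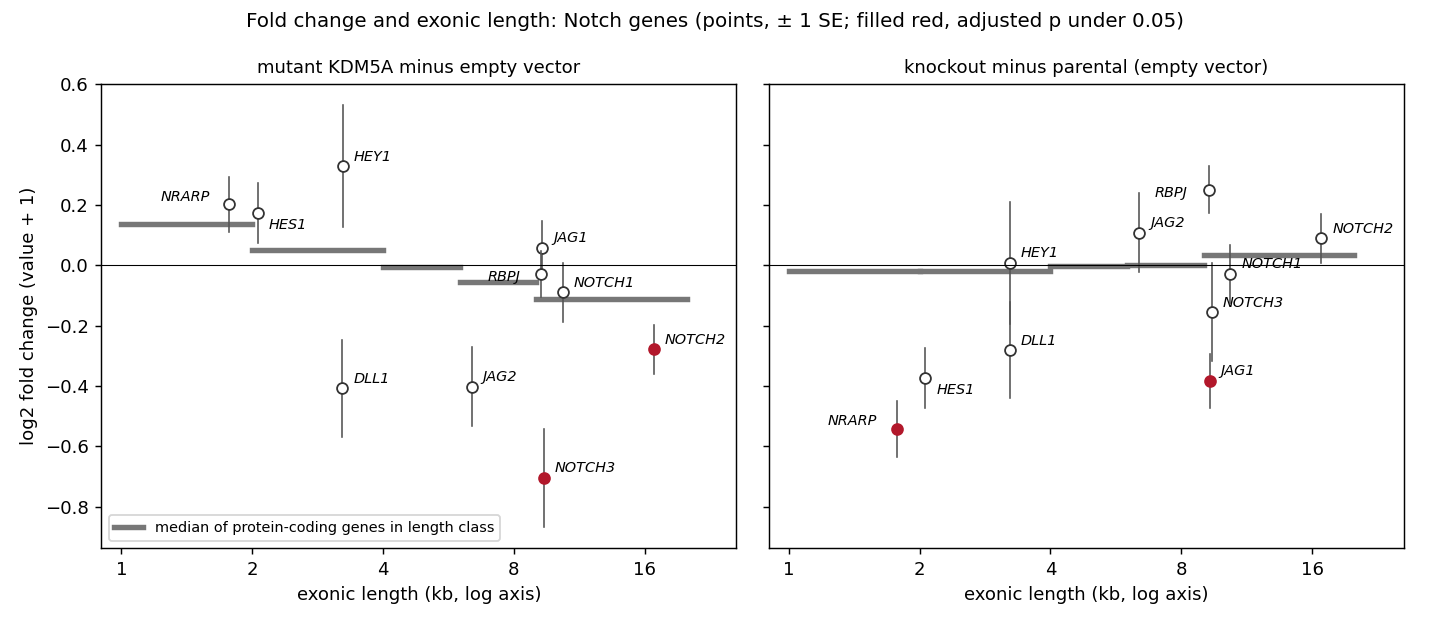
Log2 fold change of each of the 10 genes (points, ± 1 SE; filled red, adjusted p under 0.05) against its exonic length (x axis, kb, log axis), with the median of protein-coding genes in 5 length classes (grey bars). Left, mutant KDM5A minus empty vector, where the class medians run from 0.14 for genes under 2 kb to -0.11 for those over 9 kb; right, knockout minus parental, where they stay between -0.02 and 0.03.

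Fold changes with mutant KDM5A moved with transcript length. Protein-coding genes with under 2 kb of exon had a median log2 fold change of 0.14, those of 2 to 4 kb 0.05, those of 4 to 6 kb -0.01, those of 6 to 9 kb -0.06 and those over 9 kb -0.11. The 10 Notch genes span this range: NRARP has 1770 bases of exon and HES1 2062, while JAG1 has 9298, NOTCH3 9394, NOTCH1 10377 and NOTCH2 16807. After a correction for gene length NOTCH3 passed (-0.62, limma adjusted p = 0.0297) and NOTCH2 did not (-0.14, adjusted p = 0.207), while NRARP had 0.13 and HES1 0.11. In the comparison of mutant with wild-type KDM5A the corrected values were -0.26 for NOTCH2, 0.20 for NRARP and 0.23 for HES1. Knockout against parental cells showed little of this pattern, and after the same correction NRARP (-0.54, adjusted p = 0.00715) and JAG1 (-0.40, adjusted p = 0.0249) passed.

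**Figure D4:**
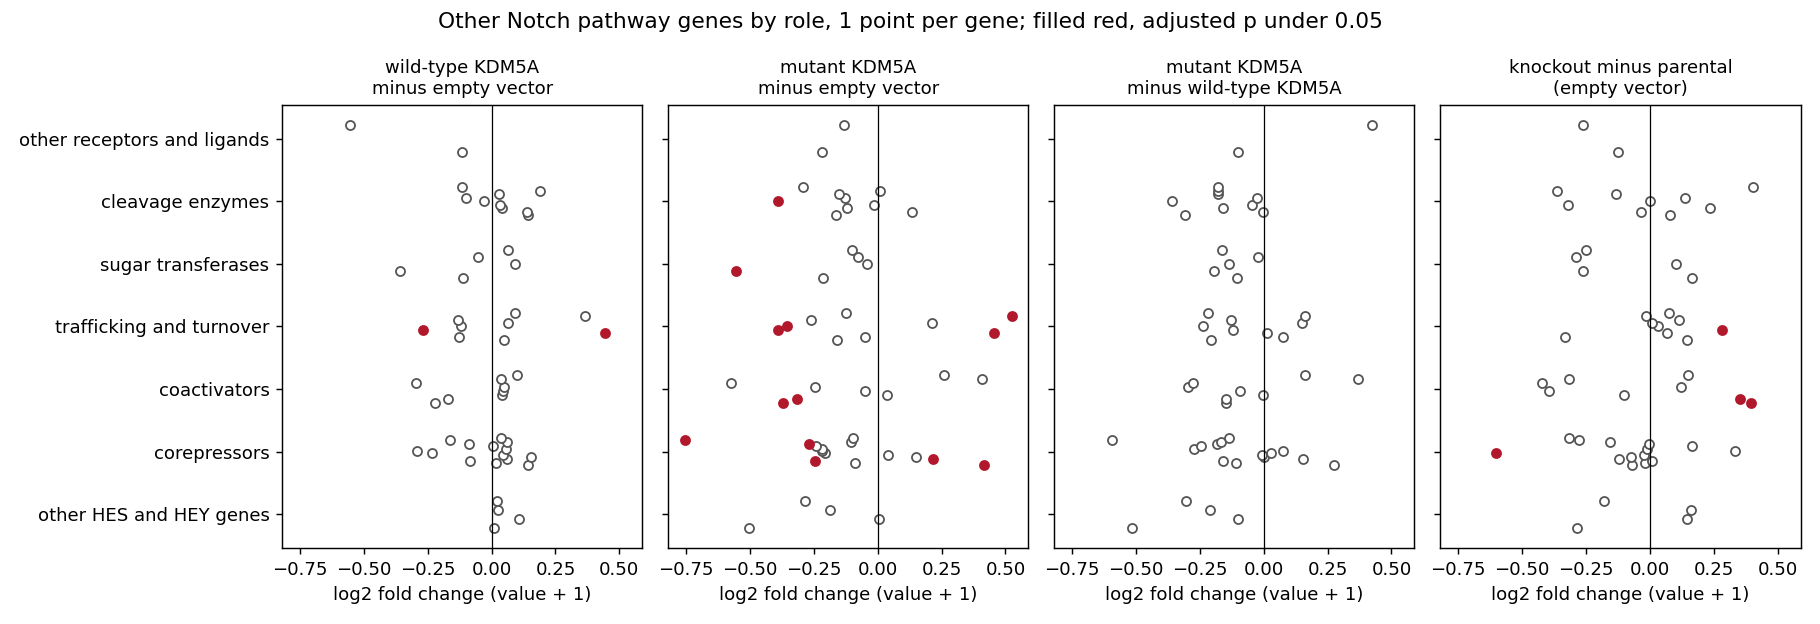
Log2 fold change (x axis) of 51 other genes of the Notch pathway, 1 point per gene, grouped by role, in the 4 comparisons; filled red points passed at an adjusted p under 0.05. With mutant KDM5A against empty vector 9 genes are lower and 4 higher, and 0 passed for mutant against wild-type KDM5A.

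The rest of the pathway was read from a list of 60 further genes by role, of which 51 were tested. With mutant KDM5A against empty vector 4 were higher and 9 lower, 25.5% of those tested against 16.5% of all genes; their median log2 fold change was -0.13, against -0.01 over all genes. TLE2, a Groucho-type corepressor, was 14.5 and 18.8 scaled FPKM in the mutant libraries and 28.7, 31.9 and 25.4 with empty vector (-0.76, SE 0.12; limma adjusted p = 0.00692). ITCH, a ubiquitin ligase of Notch receptors, was 35.4 and 33.6 in the mutant libraries and 45.9, 42.8 and 47.7 with empty vector (-0.39, SE 0.066; adjusted p = 0.00816). SPEN, a corepressor that binds RBPJ, was 31.3 and 32.1 in the mutant libraries and 39.1, 38.7 and 37.5 with empty vector (-0.27, SE 0.053; adjusted p = 0.0125). In all 3 the mutant libraries lay below every empty-vector library, as was so for 21 of the 51 genes and for 23.6% of all genes. The 3 were named because they passed on the same libraries, so this is not a separate result. MIB1, the ubiquitin ligase that acts on the ligands, also fell (-0.36, SE 0.072; adjusted p = 0.0136), as did the acetyltransferases CREBBP and EP300, the protease FURIN, the fringe enzyme MFNG and the corepressor CTBP2. The 4 higher genes were FBXW7, which marks the freed intracellular domain for destruction, NUMB, a Notch inhibitor, and the corepressor-complex genes CIR1 and HDAC1.

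TLE2 and ITCH passed in limma in all 10 fits that leave out 1 library, and each of the other 11 lost its call without mutant library 1, among them SPEN (adjusted p = 0.0570) and MIB1 (0.0501). Calls were also lost without empty-vector library 1 (MFNG, NUMB), 2 (CIR1, EP300, FURIN, HDAC1, MFNG, NUMB) or 3 (CIR1, CREBBP, EP300, FBXW7, FURIN, HDAC1, MFNG), mutant library 2 (CIR1, EP300, FBXW7, MFNG) or wild-type library 1 (MFNG), with adjusted p of 0.0501 to 0.140 where a call was lost. Without mutant library 1 the count was 2, or 3.92% of the 51 against 6.83% of all genes, so the pathway share was then below that of all genes. It was 7 without empty-vector library 2 (13.7% against 8.23%), 6 without empty-vector library 3 (11.8% against 7.64%), 7 in the fit of these 5 libraries alone (13.7% against 10.3%) and 0 with the protein-coding share as a covariate (0.72% of all genes). After the length correction it was 11, with 6 up and 5 down (21.6% against 15.2%). With a filter at a mean of 5 it was 12 of 42 genes tested, and the shares were close (28.6% against 26.2%). Without the library factors it was 31, all lower (60.8% against 37.1%), in a fit where 6150 of all genes were lower and 458 higher.

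With wild-type KDM5A against empty vector 1 of the 51 genes was higher and 1 lower, 3.92% against 4.54% of all genes. FBXW7 was 26.3, 28.9 and 27.6 in the wild-type libraries and 22.1, 20.4 and 17.9 with empty vector (0.44, SE 0.089; limma adjusted p = 0.0305). ITCH was 38.9, 36.4 and 37.5 in the wild-type libraries and 45.9, 42.8 and 47.7 with empty vector (-0.27, SE 0.059; adjusted p = 0.0401). Neither gene overlapped between the groups, as was so for 32.6% of all genes. Both were named because they passed on the same libraries, so this is not a separate result. ITCH lost its call without any 1 of these 6 libraries (adjusted p of 0.0660 to 0.146), and FBXW7 without empty-vector library 2 (0.0904) or 3 (0.10) or wild-type library 1 (0.0781), 2 (0.116) or 3 (0.0996). With no filter on low values neither passed (FBXW7 0.0643, ITCH 0.0515), and on the values as deposited FBXW7 did not (0.0623). With mutant against wild-type KDM5A none of the 51 passed in limma, against 0.0562% of all genes. An unadjusted p under 0.05 was found for 15, against 20.2% of all genes, and the median log2 fold change was -0.13, against -0.00059 over all genes. Without parental library 1 or 2 the count was 2, both lower, or 3.92% against 5.46% of all genes. On the values as deposited it was 12, all lower, or 23.5% against 8.37% of all genes.

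Between knockout and parental cells 3 of the 51 genes were higher and 1 lower, 7.84% against 8.94% of all genes. The coactivators CREBBP (39.2, 39.4 and 41.4 in knockout cells, 31.2 and 29.1 in parental cells) and EP300 (33.7, 38.7 and 39.8 in knockout cells, 29.5 and 28.5 in parental cells) rose by 0.40 and 0.35 on the log2 scale (limma adjusted p = 0.0187 and 0.0254). ITCH rose by 0.28 (adjusted p = 0.0332). The knockout libraries here are the same empty-vector libraries as in the plasmid comparisons, so opposite signs there are not separate results. L3MBTL3, which represses with RBPJ, was 10.7, 9.88 and 9.52 in knockout cells and 15.9 and 15.5 in parental cells (-0.60, SE 0.10; adjusted p = 0.0103). Knockout libraries did not overlap the parental ones for any of these 4 genes, as was so for 42.4% of all genes. The 4 were named because they passed on the same libraries, so this is not a separate result. The covariate fit and the fit without parental library 2 that follow are not separate checks, as given above. With the protein-coding share as a covariate none of the 51 passed (L3MBTL3 0.0569, ITCH 0.0744, CREBBP 0.106 and EP300 0.126), and in the fit of these 5 libraries alone only L3MBTL3 did (0.0463). Without parental library 2 none of the 51 passed either: L3MBTL3 had an adjusted p of 0.0534, ITCH 0.0840, CREBBP 0.107 and EP300 0.121. CREBBP and EP300 also missed the threshold without empty-vector library 2 (0.0526 and 0.0834) or 3 (0.0693 and 0.0846), and ITCH without any 1 of the 8 libraries other than the mutant ones, apart from empty-vector library 2 (adjusted p of 0.0546 to 0.107).

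Of the other HES and HEY genes, HES4 was the most abundant at 115 to 144 scaled FPKM over the 10 libraries, HES6 stood at 45.5 to 68.9, and HES2 and HEYL at 4.16 to 10.6. HES5, HES7 and HEY2 reached at most 1.02 in any library. None of the 4 that could be tested passed in any comparison in limma; by unadjusted p under 0.05 there were 2 with mutant KDM5A against empty vector (32.2% of all genes), 2 with mutant against wild-type KDM5A (20.2% of all genes), 1 between knockout and parental cells (25.7% of all genes) and 0 with wild-type KDM5A against empty vector (20.5% of all genes). The closest was HEYL in the first of these (-0.28, adjusted p = 0.0937). HES4 had a log2 fold change of 0.00 in that comparison and -0.10 for mutant against wild-type KDM5A. For mutant against wild-type KDM5A all 4 were lower by value (HES2 -0.52, HES6 -0.21 and HEYL -0.30), opposite in sign to HES1 and NRARP. In all 4 the mutant libraries lay below every wild-type library, as was so for 19.4% of all genes. Of 7 genes of the intestinal secretory lineage 6 were under 1 in every library, and the last, GFI1, passed in none of the comparisons.

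Over the 10 libraries, which share 4 groups, NOTCH3 was followed most closely among 10431 protein-coding genes by SH3RF1 (Pearson r 0.99), RAB11FIP3 (0.97) and SPRED1 (0.97). NRARP was followed by PHC1 (0.96), CMTM7 (0.95) and DRAM2 (0.94). NOTCH2 was followed by BOK (0.95), TPCN1 (0.94) and PTPRF (0.93), and JAG1 by TMEM241 (0.94), SEPN1 (0.93) and SNX30 (0.93). These are the closest of many genes and the values describe these libraries.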

How the data were processed

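RNA-seq of 10 libraries in 4 groups was analysed from 1 deposited table per library, which gives a symbol, a locus and the authors' log2 FPKM for 60141 loci. Per the submitters' processing notes the authors used the build GRCh38 with STAR 2.7.1a, Cufflinks 2.2.1, GATK 4.1.2 and Picard; their order, the annotation and the strand setting are not given in the sources used here. The deposited log2 values are of FPKM plus 1, and each table sums to 999975 to 1000008 on the linear scale. Each value is thus a share of a nearly fixed total, which includes KDM5A itself. Whether the FPKM were rescaled to that total is not given in the sources used here. No counts were analysed, so the depth and the precision it gives are unknown.

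Values were taken to the linear scale, summed by symbol and divided by 1 factor per library (median ratio to the geometric mean over 13651 genes at 1 or more in every library). Genes at 1 or more in at least 2 libraries were kept (17779). Exonic lengths came from GENCODE release 29 through symbol or position (93.3% of symbols, 97.6% of tested genes). Python 3.11.15, numpy 2.4.6, pandas 2.3.3 and matplotlib 3.10.9 were used, and limma 3.58.1 in R 4.3.3 (lmFit, contrasts.fit, eBayes with trend) was run on log2(scaled value + 1), all 10 libraries in 1 fit, 6 residual and 2.99 prior degrees of freedom. Tests were two-sided with Benjamini-Hochberg adjustment over all genes tested, with 0.05 as the threshold of the adjusted p. The fit was tested on simulated data. For a simulated log2 change of 0.5 it recovered 33.9% of changed genes for mutant versus empty vector and 42% for knockout versus parental. It recovered 55.6% for mutant versus wild-type and 62.5% for wild-type versus empty vector. A gene that did not pass may thus still differ.

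Nothing in the labels says that replicates are separate cultures, so p-values measure the spread between these libraries, which may be technical. The members and lists were chosen with earlier results of these data known. Named were the 10 members, KDM5A, up to 4 other pathway genes of smallest p among those that passed per comparison, and, for the member of smallest p, the 3 protein-coding genes most correlated with it (mean of at least 5). The other called pathway genes and the individual HES, HEY and marker genes were named after their values were seen. Alternatives were no library factor, quantile normalization, a pseudocount of 0.1, a filter at a mean of 5 or none, the 2 groups alone, replicate numbers as a block, array weights, the protein-coding share as a covariate and each library left out; a gene length correction and leaving out the mutant libraries and parental library 2 were added after seeing the data.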

Additional observations from a re-analysis of the deposited data

How the results depend on the processing

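With 2 or 3 libraries a group, few of the calls held in every alternative. NRARP in knockout against parental cells passed in 17 of 21 alternatives and JAG1 in 11 of 21; with mutant KDM5A against empty vector NOTCH3 passed in 14 of 20 and NOTCH2 in 6 of 20. These totals include fits that leave out 1 library of a group outside the comparison. There the fold change cannot move and only the spread does, so the totals overstate how stable the calls are. Why calls changed between alternatives was not tested. The share of all genes that passed changed with the setting too. For mutant versus empty vector it was 37.1% on the values as deposited, 12% with quantile normalization and 5.66% with no filter. It was 11.2% with array weights, 0.72% with the protein-coding share as a covariate and 15.2% with the gene length correction. Members passing for wild-type versus empty vector were 0 as reported (4.54% of all genes) and 0 without any 1 library. They were 1 with the 2 groups alone (9.5%), array weights (11.8%) or both mutant libraries and parental library 2 dropped (9.51%). For mutant versus empty vector, 2 as reported, they were 6 on the values as deposited, 1 with quantile normalization, 0 with no filter, 1 with array weights, 0 with the protein-coding share as a covariate, 1 with the gene length correction and 0 to 3 when 1 library was left out. For mutant versus wild-type, 0 as reported, they were 1 on the values as deposited and 0 to 1 with 1 library left out. For knockout versus parental, 2 as reported, they were 0 in the fit of the 2 groups alone, 1 with the covariate, 1 with both mutant libraries and parental library 2 dropped, and 1 to 2 with 1 library left out.

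With the replicate number as a block, members passing were 0 for mutant versus empty vector and 1 (NRARP) for knockout versus parental, where HEY1 had -0.027 on the log2 scale. Same-numbered libraries did not deviate together: correlations ran from -0.175 to 0.106, over 0.1 in 2 of 13 pairs, so the numbers are not treated as a pairing. Over all genes the block left 214 called for wild-type versus empty vector. Of the 51 other pathway genes it left 3 for mutant versus empty vector (5.88% against 6.24% of all genes), 0 for wild-type versus empty vector (FBXW7 adjusted p = 0.0716, ITCH 0.0953) and 0 for knockout versus parental (3.13% of all genes).

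Some members that did not pass turned sign on the log2 scale. On the values as deposited the median of all genes moved by -0.10 (wild-type versus empty vector), -0.30 (mutant versus empty vector), -0.20 (mutant versus wild-type) and 0.08 (knockout versus parental). There NOTCH2 had -0.041 for wild-type versus empty vector; JAG1 -0.26, HES1 -0.15 and NRARP -0.12 for mutant versus empty vector; RBPJ -0.097 and HEY1 -0.099 for mutant versus wild-type; and NOTCH1 0.051 for knockout versus parental. With the covariate NOTCH1 had 0.13 for mutant versus empty vector, JAG2 0.16 for mutant versus wild-type, and JAG2 -0.16 and HEY1 -0.27 for knockout versus parental. With the length correction NOTCH1 had 0.0069 and RBPJ 0.055 for mutant versus empty vector. For knockout versus parental HEY1 had -0.024 with array weights, and with both mutant libraries and parental library 2 dropped JAG2 had -0.15 and HEY1 -0.27. That last fit and the covariate fit are not separate checks in this comparison. Leaving out 1 library gave ranges of -0.031 to 0.15 for JAG1 and -0.085 to 0.032 for RBPJ in mutant versus empty vector. For knockout versus parental the ranges were -0.17 to 0.11 for NOTCH1, -0.40 to 0.091 for NOTCH3, -0.15 to 0.37 for JAG2 and -0.27 to 0.29 for HEY1.

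Over all genes the calls for wild-type versus empty vector numbered 807 (448 higher, 359 lower), 178 to 1058 with 1 library left out and 214 to 2101 otherwise; for mutant versus empty vector 2939 (1685 higher, 1254 lower), 1215 to 3466 and 128 to 6608; for mutant versus wild-type 10, 5 to 970 and 1 to 1490; and for knockout versus parental 1589 (861 higher, 728 lower), 685 to 1904 and 464 to 1690. On the values as deposited the split was 123 higher and 613 lower for wild-type versus empty vector, 458 higher and 6150 lower for mutant versus empty vector, 107 higher and 1383 lower for mutant versus wild-type (6 and 4 as reported), and 971 higher and 372 lower for knockout versus parental. With quantile normalization it was 877 higher and 1257 lower for mutant versus empty vector, and 4 and 1 for mutant versus wild-type. Depth is unknown, so counting error could not be given.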

Other observations

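The ligand DLK1 was 3.37 scaled FPKM in mutant KDM5A library 2 and 0.0461 in mutant library 1, at most 0.0571 in the wild-type and 0.0403 in the parental libraries. It was too low elsewhere to be tested. DLL4, another Delta-like ligand, was 1.43 and 0.671 in the mutant libraries, 0.733, 0.343 and 0.455 in the wild-type libraries, 1.07, 1.29 and 1.27 in the knockout libraries with empty vector and 1.93 and 1.38 in the parental libraries, all near the limit of the filter. Both were chosen after their values were seen.

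CD14 and CD68, the 2 leukocyte markers that were tested, were present in all 10 libraries while the other 4 were under 1 in every library. CD14 was 4.05 and 6.41 in the mutant libraries and 4.79, 4.11 and 3.87 in the wild-type libraries, against 1.88, 1.28 and 1.17 with empty vector in knockout cells; it passed in limma for mutant KDM5A (log2 fold change 1.33, adjusted p = 0.00605) and for wild-type KDM5A (1.11, adjusted p = 0.0143) against empty vector. CD68 was 13.3, 13.5 and 13.2 in knockout libraries with empty vector, against 10.3 and 7.95 in parental libraries, and was higher in knockout cells (0.51, adjusted p = 0.0481). Of the 6 epithelial markers tested 4 passed in limma with mutant KDM5A against empty vector, where 16.5% of all genes passed (9.48% higher). These were EPCAM, KRT8, KRT18 and KRT19, all higher by 0.31 to 0.40 on the log2 scale. The other 2 markers were CLDN4, at -0.14 (unadjusted p = 0.0446, adjusted p = 0.144), and CDH1, at -0.02 (adjusted p = 0.892). CLDN4 had no overlap between the libraries, as was so for 46.9% of all genes (23.6% lower). Their part in the Notch values was not tested.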
